A study of Mus musculus with 3 samples.

Results

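The genes described here encode the proteins of the mitochondrial ribosome. They were defined by name, as every row of the count tables whose symbol is Mrpl or Mrps followed by a number and at most 1 letter. Of the 32531 rows that name a gene, 77 met that rule. The list was chosen with earlier results of these data known. Of the 77 genes, 50 encode proteins of the large subunit and 26 proteins of the small subunit, with Mrps18a and Mrps30 counted in the large subunit, where their proteins sit in spite of their names. The remaining gene, Mrps36, carries a ribosomal name but its product is known as a subunit of the 2-oxoglutarate dehydrogenase complex. The libraries came from translating ribosome affinity purification (TRAP), in which chosen cells express a ribosomal protein fused to green fluorescent protein, so that their ribosomes, and the messenger RNA on them, can be purified with an antibody to that tag. All 3 libraries are immunoprecipitates from the cerebral cortex of untreated adult mice of 1 transgenic line, Kcnip2-EGFP/Rpl10a (NIDA115), on the C57BL/6J strain, and they form a single group. The tag is on Rpl10a, a protein of the cytosolic large subunit, and the line is named for Kcnip2, which encodes a potassium channel interacting protein of excitable cells. Sex, age in days and the number of animals per library are not stated in the labels, and no input library was analysed, so levels are those within the immunoprecipitate.

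Mitochondrial ribosomes translate the few messages of the mitochondrial genome, which encode core subunits of the respiratory chain and of the ATP synthase. Their RNA is made in the mitochondrion, but every one of their proteins is encoded in the nucleus, translated by cytosolic ribosomes and imported, so their messages can be carried by tagged cytosolic ribosomes while mitochondrial ribosomes themselves bear no tag. About their proteins it is known that some descend from the bacterial ribosome and others were added in mitochondria, and that loss of single members causes childhood disorders of brain, heart or liver with failing oxidative phosphorylation.

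The libraries held 11602248, 13635132 and 14174384 counts in genes in replicates 1, 2 and 3. Pan-neuronal markers summed to 38098 to 44165 counts per 1e+06 counts (CPM, scaled by the trimmed mean of M-values), of which Snap25 alone gave 31380 to 36012. Astrocyte markers summed to 1522 to 2437, of which Slc1a2 gave 993 to 1544, and oligodendrocyte markers to 485 to 664. Microglial markers summed to 40.0 to 59.4 and endothelial and mural markers to 12.8 to 17.6. Of the latter, Rgs5 had 67, 129 and 128 counts, Flt1 32, 89 and 46, Pecam1 42, 8 and 1, and Kdr 16, 12 and 5. Cldn5 was at 0 in 2 libraries. Non-neuronal messages were thus present, and their part in the levels below was not tested. In such bulk libraries fewer cells of a type and less RNA per cell cannot be told apart. Nothing in the labels states whether each library is a different animal, so every p-value measures the spread between these libraries only, which may be technical.

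Mitochondrial ribosomal protein genes took a small share of the reads. They held 20383, 20858 and 22040 counts, or 0.176%, 0.153% and 0.155% of the counts in genes, with a mean of 0.161% ± 0.0124 (SD, n = 3). Replicate 1 was the highest by this measure. As a share of all tallied reads, including those outside genes, the mean was 0.107% ± 0.0035 (SD, n = 3), and there replicate 3 and replicate 1 lay close together at 0.110% and 0.109% while replicate 2 stood at 0.103%. Detection was nearly complete: 74 of the 77 genes had at least 1 CPM in all 3 libraries, against 37.3% of all rows that name a gene and 56.4% of the rows of protein-coding genes.

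Levels between genes were compared as CPM per kilobase of exon. They are levels of messages in the immunoprecipitates, and protein was not measured. On this scale the median of the 77 genes was 12.5, 11.1 and 10.02 in replicates 1, 2 and 3, with a mean of 11.2 ± 1.25 (SD, n = 3), and the median over the 12080 genes tested was 6.25. Genes of the large subunit had a median of 12.1 ± 1.32 and those of the small subunit a median of 9.50 ± 0.288 (SD, n = 3). Within the large subunit the genes of the 30 proteins with bacterial counterparts and of the 20 specific to mitochondria had medians of 12.2 ± 1.46 and 11.8 ± 0.408. In the small subunit the corresponding medians were 9.92 ± 0.881 for 16 genes and 6.39 ± 0.666 for 10 genes. This last set had library values of 6.90, 5.64 and 6.63, but its median falls in a gap between Mrps33 at 10.04 and Mrps25 at 3.18. Its place depends on the scale: without division by length its medians of 17.7, 14.5 and 16.3 CPM lay above the 13.1, 11.9 and 9.46 of the conserved small-subunit proteins in every library.

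**Figure D1:**
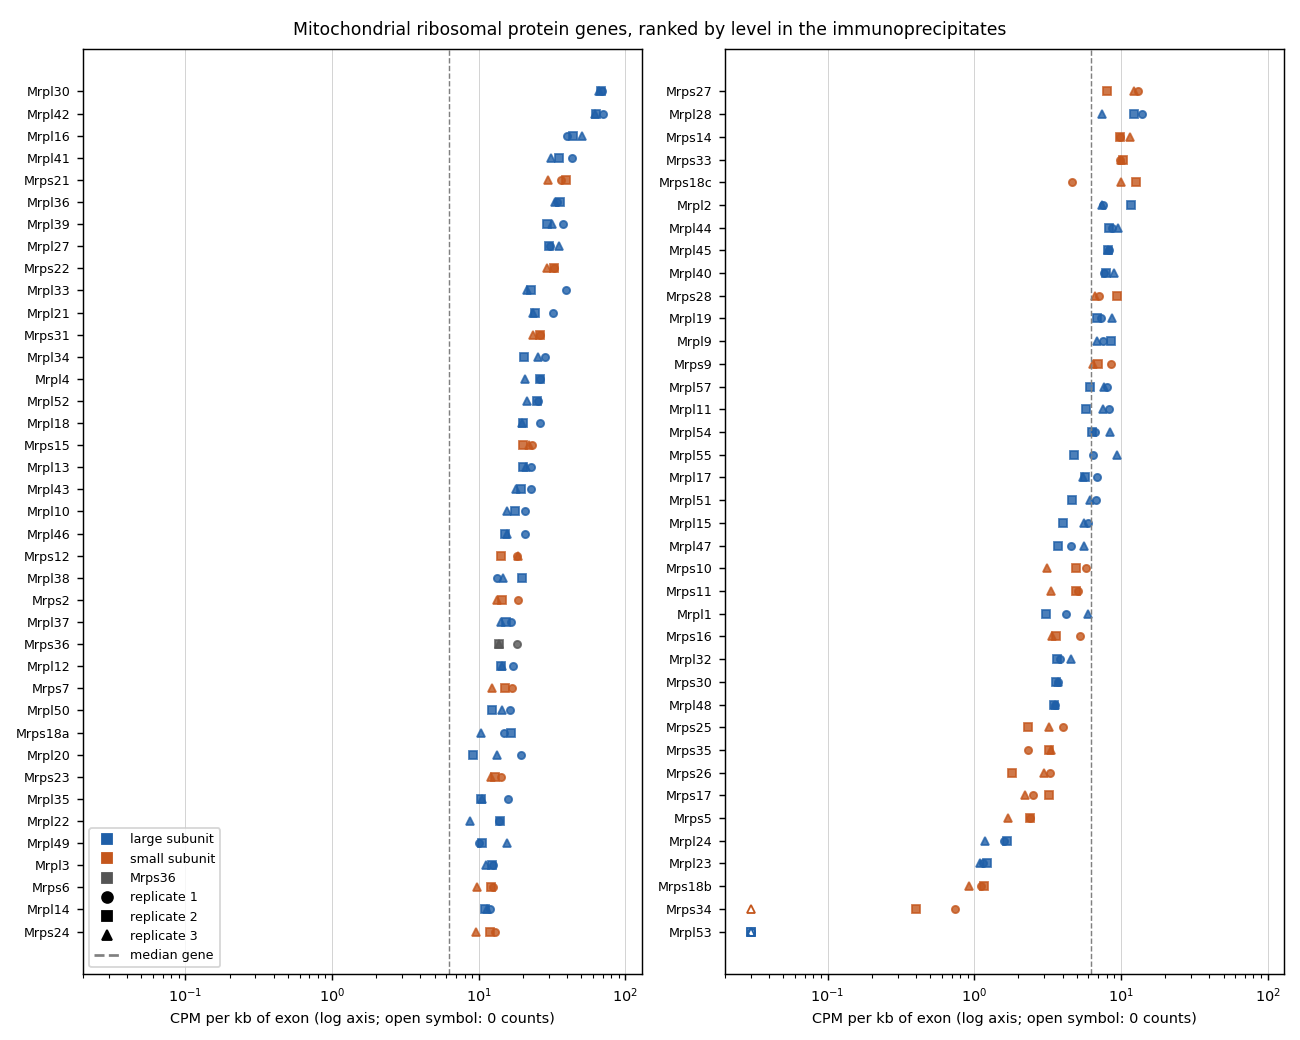
Level of each of the 77 genes in each library, in CPM per kilobase of exon on a log axis, ranked from the highest at the top left to the lowest at the bottom right; colour gives the subunit, symbol shape the replicate, and open symbols mark 0 counts. Mrpl30 and Mrpl42 stand at the top, at 67.9 and 65.2 on average, and Mrps34 and Mrpl53 lie below all the others.

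The highest gene was Mrpl30, which encodes a large-subunit protein with a bacterial counterpart, at 69.7, 67.7 and 66.2 CPM per kilobase in replicates 1, 2 and 3. Mrpl42, specific to the mitochondrial large subunit, followed at 70.4, 63.0 and 62.2. The libraries of these 2 genes overlapped, so their order is not settled by these data. Mrpl16, whose protein lies near the tRNA binding sites, came next at 39.8, 43.7 and 50.3, below both of them in every library. Mrpl41 had 43.5, 35.2 and 31.3, Mrps21, a conserved protein of the small subunit, had 36.2, 39.3 and 29.7, and Mrpl36, another conserved protein of the large subunit, had 34.1, 36.1 and 33.3. These last 3 genes overlapped each other throughout. By counts not divided by length the highest gene was Mrpl39, with 86.0, 67.5 and 72.0 CPM.

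Genes for proteins around the catalytic centre and the exit tunnel of the large subunit did not share 1 message level. Mrpl4, whose protein lines the tunnel, was at 24.3 ± 3.16 CPM per kilobase (SD, n = 3), while Mrpl3 and Mrpl2, which reach toward the peptidyl transferase centre, were at 12.02 ± 0.694 and 8.89 ± 2.47. At the tunnel exit, Mrpl45, which contacts the inner membrane, was at 8.17 ± 0.118, and its library values of 8.31, 8.11 and 8.10 were among the least variable of all. Mrpl23 and Mrpl24, also at the exit, were far lower, at 1.16 ± 0.0621 and 1.48 ± 0.257. In the stalk that recruits translation factors, Mrpl10 had 17.96 ± 2.52, Mrpl12 15.3 ± 1.69 and Mrpl11, at the base of the stalk, 7.23 ± 1.30. Mrpl44, a protein related to ribonuclease III, had 8.81 ± 0.624, and Mrps30, a large-subunit protein despite its symbol, had 3.69 ± 0.0536. Mrpl58, the rescue factor that is built into the large subunit, appears in the tables under its older symbol Ict1, outside the naming rule, at 8.66 ± 2.31.

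In the small subunit the named genes also spread over more than 10-fold. Mrps22, a mitochondria-specific protein, was at 32.8, 32.6 and 29.2 CPM per kilobase, and Mrps12, the protein of the decoding centre, at 18.3, 14.2 and 18.6. Mrps2 followed at 15.5 ± 2.72, Mrps6 at 11.5 ± 1.52 and Mrps28 at 7.70 ± 1.51 (SD, n = 3). Mrps5, which lines the entry path of the messenger RNA, was lower at 2.40, 2.39 and 1.71. Mrps36 had 18.4, 13.7 and 13.8.

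The 3 paralogs named Mrps18, which descend from 1 bacterial protein and occupy different places in the ribosome, did not share 1 level. Mrps18a, in the large subunit, had 14.8, 16.6 and 10.4 CPM per kilobase. Mrps18c, in the small subunit, had 4.62, 12.6 and 10.02, with replicate 1 far below the others, and its range overlapped that of Mrps18a. Mrps18b, also in the small subunit, had 1.11, 1.16 and 0.919 and did not overlap either paralog in any library. A share of 29.5% of the 50-base stretches in the exons of Mrps18b also occurs in other annotated genes, in the predicted gene Gm13552, and the part of such copies in its count was not tested.

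The genes under 1 CPM in at least 1 library were Mrps18b, Mrps34 and Mrpl53. Mrps18b missed by a little, with 1.19, 1.26 and 0.992 CPM from 14, 17 and 14 counts. Mrps34, a mitochondria-specific protein of the small subunit whose loss is known to cause Leigh syndrome, had 8, 5 and 0 counts, or 0.682, 0.369 and 0 CPM. Mrpl53, a mitochondria-specific protein of the large subunit, had 0 counts in all 3 libraries. A count of 0 allows up to 3 counts, which is 0.256, 0.222 and 0.213 CPM in replicates 1, 2 and 3, for counting error only. Mrps34 lies at GRCm38 chr17:24895116-24897502 and Mrpl53 at chr6:83109040-83109939, both on the plus strand. Neither gene overlaps exons of another gene matched to a row of the count tables. Neither shares a 50-base stretch with an annotated gene that lies elsewhere. Overlap with annotated genes that have no matched row was not checked. Both proteins are structural parts of the ribosome, and their counts lay far below those of every other member except Mrps18b, Mrpl23 and Mrpl24, which had between 13 and 35 counts per library.

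Each gene past the count filter was then set against the median gene of its own library. The test asked whether the difference exceeded 2-fold (limma's treat, two-sided, Benjamini-Hochberg adjustment over 12080 genes), and 75 members could be tested. Of these, 24 lay above the median gene by more than 2-fold, where 26.6% of all genes were called above, and 4 lay below, where 25.2% of all genes were called below. The other 47 did not pass in either direction. The members' median difference was 0.90 on the log2 scale, or 1.86-fold, and the difference was positive for 56 of the 75. Large-subunit genes were above in 19 cases and below in 2 of 49, and small-subunit genes above in 5 and below in 2 of 25. Mrpl30 led with a log2 difference of 3.44 ± 0.10 (SE, adjusted p = 3.46e-05), and the 4 genes below were Mrps18b at -2.38 ± 0.11 (SE, adjusted p = 0.000225), Mrpl23 at -2.25 ± 0.10 (adjusted p = 0.000221), Mrpl24 at -2.002 ± 0.13 (adjusted p = 0.00125) and Mrps5 at -1.52 ± 0.14 (adjusted p = 0.0156).

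The position relative to the median gene depended on exon length. These genes are short, with a median exon length of 1363 bases against 3590 for all genes tested. Without division by length their median log2 difference was -0.10, with 4 members above and 9 below, where 28.8% and 27.3% of all genes were called. Calls that held with and without length, and with 2 other length definitions, were those of Mrpl16, Mrpl30 and Mrpl39 above and of Mrpl23, Mrpl24 and Mrps18b below. The members sat closer together than all genes on both scales. Their interquartile range was 1.57 log2 units per kilobase against 2.87 for all genes, and 56% of them lay within 2-fold of their own median against 35.8% of all genes around theirs. Without length these shares were 69.3% and 32.7%. This was not particular to them: per kilobase the interquartile range was 1.32 for cytosolic ribosomal proteins, 1.14 for mitochondrial aminoacyl-tRNA synthetases and 1.38 for assembly factors, with 64.1%, 58.8% and 58.8% within 2-fold of their own medians. It was wider than the members' at 1.69 for nuclear genes of oxidative phosphorylation and 1.81 for mitochondrial translation factors, with 58.1% and 45.5% within 2-fold. Among the members, small-subunit genes taken alone had 1.86 and 48%.

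**Figure D2:**
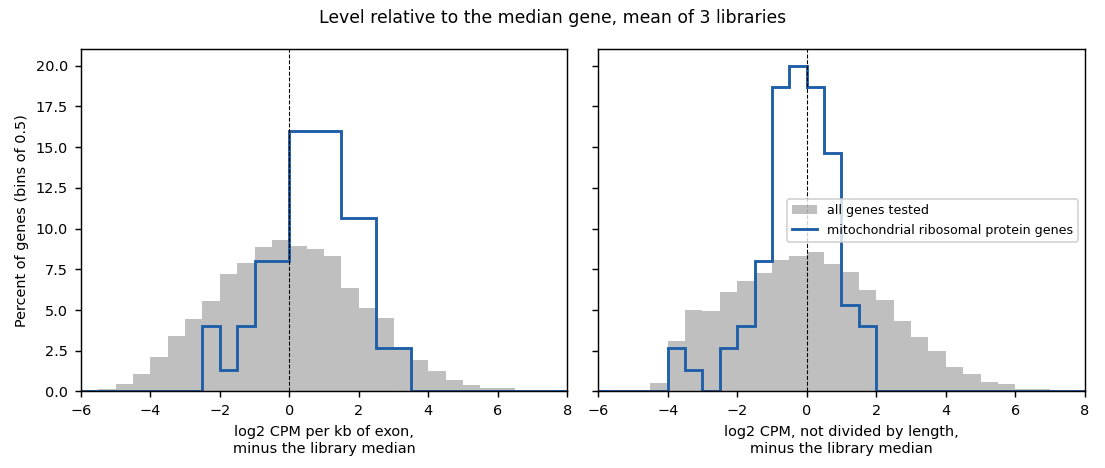
Distribution of the log2 level relative to the median gene of the library, averaged over the 3 libraries, as the percent of genes in bins of 0.5 log2 units, for all genes tested (grey) and the mitochondrial ribosomal protein genes (blue line). Per kilobase of exon (left) the members' median is 0.90 above the median gene, and without division by length (right) it is -0.10; the members are narrower than all genes in both panels, with 56% and 69.3% within 2-fold of their own median.

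Genes for other parts of the machinery of mitochondrial protein synthesis were mostly lower than the ribosomal protein genes per kilobase of exon. The median level was 3.74 ± 0.726 CPM per kilobase for 11 translation factors, 2.41 ± 0.327 for 17 aminoacyl-tRNA synthetases and 4.001 ± 0.291 for 18 assembly factors (SD, n = 3), and each of these medians was below the 10.02 to 12.5 of the ribosomal proteins in every library. Against the median gene, 0 translation factors passed above and 3 of 11 below, 1 synthetase above and 7 of 17 below, and 0 assembly factors above and 4 of 17 below. Of all genes tested, 26.6% were called above and 25.2% below. The shares of translation factors and assembly factors called below were thus near that of all genes. Mtif2, the initiation factor that places the first tRNA, was the highest factor at 11.1 ± 1.79, and the lowest were Gfm2, which helps to recycle ribosomes, at 1.16 ± 0.212 and the GTPase Guf1 at 1.16 ± 0.205, whose libraries overlapped. Among the synthetases the lowest was Mars2, for methionine, at 0.750 ± 0.0629. The highest was Lars2, for leucine, at 611 ± 102, far above the next, Rars2, at 8.48 ± 0.577. Lars2 held 29223, 36714 and 27336 counts, more than all 77 ribosomal protein genes together in every library. The part of sequence shared with other genes in the Lars2 count was not tested, so this level may not be that of Lars2 messages alone. Of the assembly factors Mterf3 had the highest mean, from 13.8, 12.1 and 23.1, but the GTPase Noa1, at 15.1, 16.7 and 13.8, was above it in replicates 1 and 2. The lowest was the GTPase Mtg2 with 7, 1 and 21 counts. Genes whose proteins belong to the ribosome but carry other names had a median of 12.4 ± 0.293. They were Aurkaip1 at 25.7 ± 2.92, Ptcd3 at 14.6 ± 1.56, Chchd1 at 13.4 ± 0.748, Dap3, the GTP-binding protein of the small subunit, at 11.3 ± 1.33, Ict1 as given above and Gadd45gip1 at 4.28 ± 0.676, and of these 6 genes Aurkaip1 passed above the median gene by more than 2-fold. By contrast, cytosolic ribosomal protein genes had a median of 38.9 ± 2.58, with 68 of 78 above and 0 below. Nuclear genes for subunits of oxidative phosphorylation had a median of 58.8 ± 9.57, with 67 of 74 above and 1 below. Cytosolic and mitochondrial ribosomal protein genes did not overlap in their library medians.

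Variation between the 3 libraries was tested for each gene against the trend over all genes. In an intercept-only quasi-likelihood fit (edgeR, Benjamini-Hochberg adjustment over 12509 genes), 0 of 75 members varied between libraries beyond the fitted trend, where 0.0879% of all genes were called. At an unadjusted p under 0.05 there was 1 member (1.33%) against 5.72% of all genes, and DESeq2 marked 0 members as dispersion outliers. The ratio of a gene's variation to the trend exceeded 1 for 22 members (29.3%) and for 37.8% of all genes, with medians of 0.579 and 0.707. The coefficient of variation of CPM over libraries ran from 0.722% for Mrpl48 to 44.96% for Mrps18c, with a median of 14.8%, close to the 15.2% of all genes.

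The 4 members with the largest ratios differed in which library stood apart. Mrps18c had 51, 161 and 133 counts in replicates 1, 2 and 3 and a ratio of 3.43 (edgeR quasi-likelihood fit, adjusted p = 0.868), so replicate 1 was low. Mrpl1, part of the mobile stalk where spent tRNA leaves, had 212, 178 and 362 counts and a ratio of 3.18 (adjusted p = 0.893), with replicate 3 high. Mrpl35 had 687, 526 and 551 counts and a ratio of 3.11, and Mrpl20 had 210, 114 and 173 counts and a ratio of 2.87, both with replicate 1 highest. None of these passed the test.

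A small common shift between libraries was visible in the medians of the list. Measured as log2 CPM minus the gene's own mean over libraries, the members' median was 0.11 in replicate 1, -0.05 in replicate 2 and -0.07 in replicate 3. Replicate 1 was the highest library for 46 of 75 members (61.3%), against 36.4% of all genes. Large-subunit genes had medians of 0.11, -0.08 and -0.05, and small-subunit genes 0.12, 0.05 and -0.17. By gene, the large subunit was nearly tied, with 23 of 49 genes lowest in replicate 2 and 22 in replicate 3. In the small subunit 5 of 25 were lowest in replicate 2 and 16 in replicate 3. Cytosolic ribosomal protein genes had 0.10, -0.05 and -0.04 and were highest in replicate 1 in 65.4% of cases, and oxidative phosphorylation genes had 0.21, -0.11 and -0.10 with 82.7%. Nuclear-retained RNAs moved with them in replicate 1, at 0.52, -0.06 and -0.52, and non-neuronal markers went the other way at -0.33, 0.24 and 0.15, with 15 of the 22 lowest in replicate 1. Neuronal markers moved as well: GABAergic markers had 0.17, -0.05 and -0.09, glutamatergic markers -0.25, 0.07 and 0.19, and pan-neuronal markers -0.13, 0.01 and 0.11. Of the 5 genes in each of these lists, 4 GABAergic genes were highest in replicate 1, and all 5 glutamatergic and all 5 pan-neuronal genes were lowest there. The part of RNA quality and of cell composition in the shift was not tested. When libraries were scaled to all tallied reads the members' medians became 0.02, -0.03 and 0.01. The median of all genes then moved to -0.09, 0.01 and 0.08. The sign of the members' own median in replicate 3 thus depends on the scaling. Taken relative to the median of all genes it does not. By that measure the members were at 0.113, -0.0486 and -0.0709 with the main scaling, and at 0.113, -0.0488 and -0.0708 with all tallied reads.

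**Figure D3:**
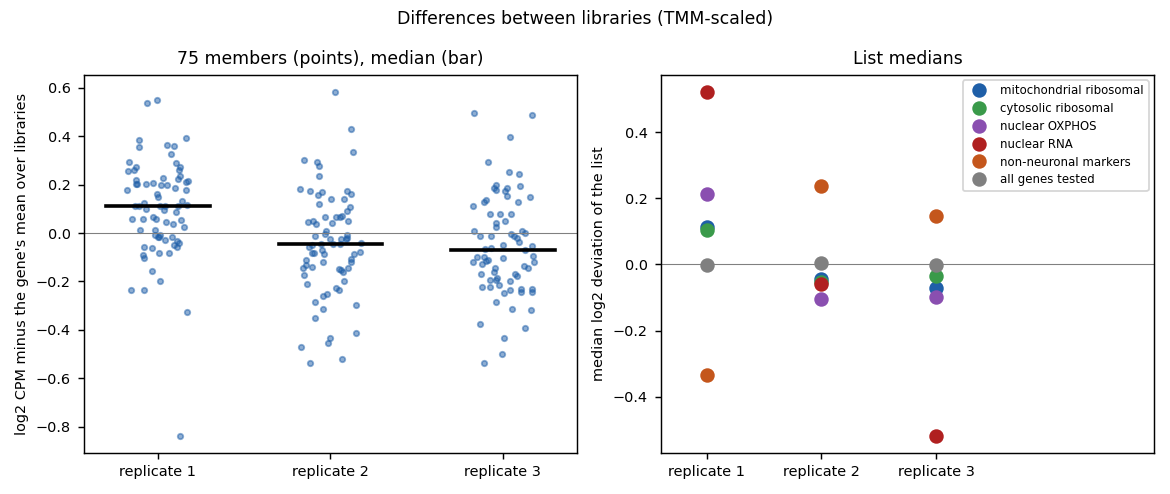
Left, log2 CPM of each of the 75 members past the count filter minus its mean over libraries, by replicate, with the median as a bar. Right, the same median for the members and other gene lists. The members' medians are 0.11, -0.05 and -0.07, close to those of the cytosolic ribosomal protein genes. When scaled to all tallied reads they are 0.02, -0.03 and 0.01, but still 0.11, -0.05 and -0.07 relative to the median of all genes. The 6 nuclear-retained RNAs run from 0.52 to -0.52.

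In the genome these genes lie on 17 chromosomes, with 10 on chromosome 11, 8 on chromosome 17 and 7 on chromosome 6, and many of them start back to back with another gene. A head-to-head neighbour, meaning an annotated protein-coding gene on the opposite strand whose 5′ end lies within 1000 bases, was found for 33 of 77 (42.9%), against 11.2% of protein-coding rows and 15.6% of the 11805 protein-coding genes past the count filter. Noncoding neighbours were not searched, and starts were those of the GENCODE annotation. The annotated starts were at most 100 bases apart without overlap for 11 members and overlapped for 15. Such pairs share the stretch between their starts, and for starts 25 to 100 bases apart it could be read for 9 members. The stretches of Mrpl32, Mrpl50 and Mrpl51 held the letters CCAAT or their reverse complement and are not shown. Of the 9, only those of Mrps27 and Mrps18c held the letters marked below. The 5 stretches shown were picked because the levels of the genes on their left and right are compared next. They are read on GRCm38 in the direction of the ribosomal gene, so the partner starts off the left end on the opposite strand, and capitals mark the letters CCGGAAG, the core recognised by ETS-family factors such as GABP, or its reverse complement.
Mrpl30 and Mitd1, chr1:37890412-37890476, plus strand: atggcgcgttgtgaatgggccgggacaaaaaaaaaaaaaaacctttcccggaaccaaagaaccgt
Mrpl49 and Fau, chr19:6057786-6057843, minus strand: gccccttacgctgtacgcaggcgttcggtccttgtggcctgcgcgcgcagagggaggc
Mrps27 and Ptcd2, chr13:99344706-99344785, plus strand: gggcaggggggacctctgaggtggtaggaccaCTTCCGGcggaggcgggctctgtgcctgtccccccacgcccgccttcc
Mrps18c and Helq, chr5:100798599-100798626, plus strand: gtgaCTTCCGGcccgggaagcgcgggaa
Mrps34 and Eme2, chr17:24895088-24895115, plus strand: gcttttgttcaggacaccggccgcttcc

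The genes of a pair mostly stood at different levels. Among the 30 pairs with a partner outside the list that is in the tables, the ribosomal gene was higher per kilobase in all 3 libraries in 20, the partner was higher in all 3 in 9, and 1 pair was mixed. Across the Mrpl30 stretch, Mrpl30 had 69.7, 67.7 and 66.2 CPM per kilobase and Mitd1, which acts in the last step of cell division, 2.63, 3.797 and 4.96. Across the Mrpl49 stretch the order was the other way: Mrpl49 had 10.0025, 10.5 and 15.5 and Fau, which encodes a cytosolic ribosomal protein fused to a ubiquitin-like domain, 42.6, 30.7 and 28.6. Mrps27 had 13.1, 8.07 and 12.3 and Ptcd2, a mitochondrial RNA-binding protein, 20.2, 23.3 and 22.5. Mrps18c was above the DNA helicase gene Helq, at 1.55, 0.901 and 0.903, in every library. The mixed pair was Mrps34 with Eme2, a DNA nuclease subunit, where Mrps34 had 0.743, 0.402 and 0 and Eme2 had 0.340, 0.815 and 0.445, and both genes were low.

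Some partners also serve mitochondria. Mrps12 had 18.3, 14.2 and 18.6 CPM per kilobase beside 2.60, 3.24 and 1.74 for Sars2, the mitochondrial synthetase for serine. Mrpl36 had 34.1, 36.1 and 33.3 beside 31.6, 25.1 and 29.5 for Ndufs6, a subunit of respiratory complex I, the closest match among the pairs. Mrpl47, in contrast, had 4.54, 3.73 and 5.602 beside 88.3, 64.8 and 75.1 for Ndufb5, also a subunit of complex I. Mrpl46 and Mrps11 are partners of each other, at 20.8, 15.04 and 15.6 and at 5.09, 4.97 and 3.35, and the large-subunit gene was higher in every library. The widest gap in the partner's favour was that of Mrpl48, at 3.56, 3.51 and 3.53, beside the membrane traffic gene Rab6a at 335, 365 and 394. The low member Mrps18b stood beside Ppp1r10, a regulatory subunit of a nuclear phosphatase, at 15.4, 16.4 and 16.7.

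**Figure D4:**
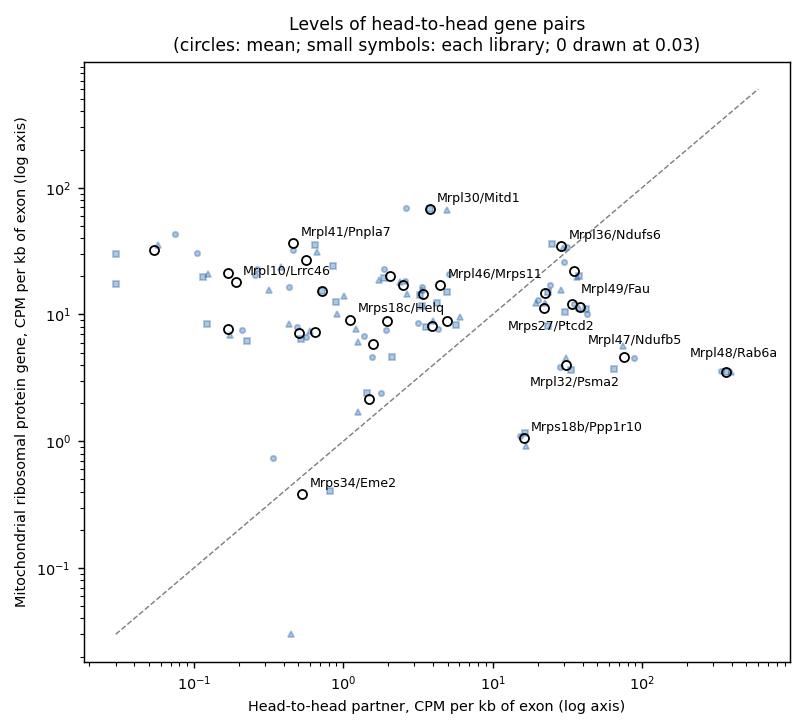
Mean level of each head-to-head pair (open circles) and its value in each library (small symbols), in CPM per kilobase of exon on log axes, with the ribosomal gene on the vertical and its partner on the horizontal axis; values of 0 are drawn at 0.03. Pairs above the dashed line of equality have the higher ribosomal gene, as in 20 of the 30 pairs with a partner outside the list, and pairs such as Mrpl48 with Rab6a lie far to the right of it.

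Promoter windows of 300 bases, from 250 before to 50 after the RefSeq start on GRCm38, were available for 68 members and were searched on both strands for 5 short motifs. The RefSeq start can differ from the GENCODE start used for the head-to-head pairs. The ETS core CCGGAAG was in 33.8% of the members' windows and in 12.1% of all 17481 windows, beside 39.7% for cytosolic ribosomal proteins and 24.6% for oxidative phosphorylation genes. The core AAGATGG of the YY1 motif, whose first letters can overlap the end of an ETS core, was in 19.1% against 6.54%, and the core GCGCATG of the NRF1 motif in 11.8% against 4.98%, with 21.3% among oxidative phosphorylation genes. The windows of Mrpl52, Mrps12, Mrps18a and Mrps27 held both an ETS core and a YY1 core. The CCAAT box, CCAAT, was about as frequent as elsewhere, at 39.7% against 38.7%, and the TATA box, TATAAA, was in 5.88% against 12.8%. The undetected Mrpl53 and the low Mrps18b had an ETS core in their windows, as did the abundant Mrps21 and Mrps22. These matches are descriptions of letters, and binding was not measured.

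How the counting treated strand is not stated in the labels or processing notes, so members that overlap other genes or have near copies carry an uncertainty. Exons of 18 members (23.4%) overlap those of another gene matched to a row. This compares with 13.6% of protein-coding rows and 16.7% of the 11805 protein-coding genes past the count filter. The overlap took up 58.2% of the exon bases of Mrps25 (with Nr2c2), 39.2% of Mrpl19 (with Gcfc2) and 38.2% of Mrpl24 (with Rrnad1). It took up 27.5% of Mrpl43 (with Peo1), 27% of Mrpl13 (with Mtbp), 22.6% of Mrps27 (with 6430562O15Rik) and 18.8% of Mrps6 (with Slc5a3, on the same strand). In 9 members the overlap exceeded 10% of the exon bases. As to near copies, 13 members share more than 10% of their 50-base stretches with other annotated genes and 5 share more than 25%. These 5 were Mrpl23 at 51.7%, matching the pseudogene Mrpl23-ps1, Mrpl27 at 35.4%, Mrps36 at 33.7%, Mrpl22 at 33.4% and Mrps18b at 29.5%. Among the lowest members, Mrpl23 and Mrps18b thus have near copies and Mrpl24 an overlapping neighbour. For Mrps34 and Mrpl53 neither was found among the genes checked. A near-0 count can also come from the annotation or strand setting used in counting, which was not tested, and the cytosolic ribosomal protein gene Rpl26, needed in every cell, also had 0 counts in all 3 libraries. Across the 77 members the Spearman correlation of CPM with exon GC content was -0.331 and with exon length 0.357, against -0.178 and 0.332 over 12080 genes. Per kilobase the members' signs turned, to 0.213 and -0.437, against -0.0743 and -0.0624, and a level divided by length is tied to length in part by that division. These are correlations across genes that share the same libraries, and genes are not independent replicates.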

How the data were processed

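RNA bound to tagged ribosomes was sequenced in 3 immunoprecipitates of 1 group. Each deposited table holds whole-number read counts by gene symbol, and the authors left them unnormalized. The submitters' processing notes name the aligner STAR 2.0.0e, the counter HTSeq and the build mm10, but not the counting mode, the strand setting or the gene annotation. Special rows of the counter were left out of library sizes. All 77 members, 23115 rows by symbol and 735 by an older symbol, were matched to GENCODE M21 (GRCm38, which is mm10), and exon length is the union of its basic transcripts. R 4.3.3 was used with edgeR 4.0.16 (TMM, filterByExpr with a minimum count of 10, robust quasi-likelihood fit, 12509 genes), limma 3.58.1 (treat, 2-fold, prior count 2, 12080 genes with a length) and DESeq2 1.42.0 as an alternative, with Benjamini-Hochberg adjustment at 0.05. The quasi-likelihood F ratio sets each gene's variation against the trend. Counting precision is given as the limit of 3 counts, since reads are not independent molecules.

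Members and gene lists were chosen with earlier results of these data known. Named are the 6 highest and 6 lowest members per kilobase, those called for variation and the 4 with the largest ratio, those under 1 CPM in any library, a list of landmark proteins, the highest and lowest of the related lists, close rivals of these, and members shown for a partner, motif, overlap or copy, which were chosen after their values were seen. Alternatives were another scaling, no filter, other lengths, another prior count, no minimum fold and each library left out. Fits were tested on simulated data. Promoter windows are RefSeq's, GRCm38. The cores of the NRF1 and YY1 motifs were chosen after longer forms had been searched. Of the members, 9 have no window in that table.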

Additional observations from a re-analysis of the deposited data

How the results depend on the processing

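Leaving out each library in turn changed no direction: 21 to 23 members lay above the median gene and 3 to 4 below, the median log2 difference was 0.91 to 1.02, the median log2 level 3.42 to 3.58, the share of counts 0.154% to 0.166%, members detected 74 to 75 and members called for variation 0. No paired analysis was possible because the series has 1 group. With no filter on low counts, 47 members lay above and 2 below, with a median difference of 1.91, since the median gene is then lower. Without division by exon length 4 lay above and 9 below, and the median difference reversed to -0.10. The plain limma test against 0, with no minimum fold, placed 47 above and 14 below. Other lengths, chosen after seeing the data, gave 8 below with the union of all annotated exons. The members' median log2 level was 3.50 ± 0.15 (SD, n = 3), and became 4.13 without length, 2.95 with the union of all exons and 3.72 with the median transcript length. With all tallied reads as the denominator the share was 0.107%. Detection at 10 counts or at 5 CPM gave 75 and 67 members. The 11 genes of the whole table called for variation became 66 with no filter, 5 without robust estimation, 4 without replicate 2 and 28 as DESeq2 dispersion outliers, and none of these settings called a member. DESeq2 size factors and a prior count of 0.5 kept 24 above and 4 below. Apart from the effect of the filter and of the divisor, the cause was not tested. At this depth a member under 3 counts in a library cannot be told from absent.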
